A study of Rattus norvegicus with 9 samples.

Results

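Markers of chondrocyte hypertrophy and of mineralizing bone cells were followed as 9 genes, Spp1, Col10a1, Runx2, Alpl, Ibsp, Mef2c, Panx3, Phex and Sp7, chosen by symbol from the 18924 genes of the deposited table. Each symbol had a single row, and 8 of the 9 passed the filter on low counts that left 13856 genes for testing. Phex did not pass it. The members and the other lists below were chosen with earlier results of these data known. Their shares of called genes and their medians stand beside those of all genes as a description only.

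The cells were primary chondrocytes of SD (Sprague-Dawley) rats, grown in serum-containing medium and used at passage 1 or 2. Treatment lasted 24 h and was rat plasma, thrombin and an unnamed inhibitor (RPTi, n = 3), rat plasma and thrombin (RPT, n = 3), or only rat plasma (RP, n = 3), so plasma was common to all 3 groups. The series addresses how thrombin, the clotting protease that also signals through cell-surface receptors, acts on chondrocytes, and its title names MEK, Erk1/2 and Stat3. The labels give no age, no dose, and no word on separate animals or cultures. The p-values therefore reflect the scatter among these 9 libraries alone, and that scatter may be technical.

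In the growth plate, chondrocytes stop dividing, enlarge, switch from collagen II to collagen X, and prepare the matrix for calcification and replacement by bone. RUNX2 and MEF2C are transcription factors that drive this step in mice, and SP7 (osterix) acts after RUNX2 in bone formation. Mineral forms where tissue-nonspecific alkaline phosphatase, encoded by Alpl, removes pyrophosphate, an inhibitor of crystal growth. Osteopontin (Spp1) and bone sialoprotein (Ibsp) are acidic phosphoproteins that bind mineral and integrins; osteopontin protein is also a known substrate of thrombin. Hypertrophy-like expression in articular cartilage is a recognised feature of osteoarthritis.

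Library totals were 31914905 to 37125039 counts in RPTi, 31877265 to 37009972 in RPT and 33520888 to 43962783 in RP, and 1 count corresponded to 0.0226 to 0.0323 CPM (counts scaled to a common library size with TMM factors). The cells carried the markers of chondrocytes: 8 such genes summed to 72888 to 79044 CPM in RPTi, 29690.2 to 31536 CPM in RPT and 47203 to 48257 CPM in RP. Genes named for late hypertrophy and bone covered a wide range of levels. Col10a1, which encodes collagen X, had 3 to 35 counts per library, and the osteocalcin gene Bglap had 0 to 7. The collagenase gene Mmp13 had 358 to 3693 counts per library, and the bone collagen gene Col1a1 averaged 12568 CPM in RPTi, 6570 CPM in RPT and 12039 CPM in RP. The 9 genes are thus hypertrophy and bone markers by name, measured in cells with little collagen X RNA. In a culture sequenced in bulk, fewer cells of a type and less RNA per cell cannot be told apart.

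Promoter sequences are shown where a differing and a non-differing member can be set side by side. The RefSeq table (build GRCr8, another build than the Rnor_6.0 named by the submitters) held an entry for 5 of the 9 genes. The 250 bases before the start are shown for Spp1, which moved against Alpl, for Alpl, and for Ibsp, which lies close to Spp1 and passed no test. Capitals mark matches to any of 5 motifs searched on both strands, which were the RUNX core (TGTGGT or TGCGGT), AP-1 (TGANTCA), a GC box (GGGCGG), an ETS site (CCGGAAGT) and a STAT site (TTCNNNGAA).
Spp1, GRCr8 chr14:5619805-5620054, minus strand: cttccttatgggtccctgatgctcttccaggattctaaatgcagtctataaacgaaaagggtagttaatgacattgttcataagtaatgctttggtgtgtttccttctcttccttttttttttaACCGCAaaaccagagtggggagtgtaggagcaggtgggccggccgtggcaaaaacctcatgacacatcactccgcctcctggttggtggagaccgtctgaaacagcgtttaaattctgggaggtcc
Alpl, GRCr8 chr5:155289786-155290035, minus strand: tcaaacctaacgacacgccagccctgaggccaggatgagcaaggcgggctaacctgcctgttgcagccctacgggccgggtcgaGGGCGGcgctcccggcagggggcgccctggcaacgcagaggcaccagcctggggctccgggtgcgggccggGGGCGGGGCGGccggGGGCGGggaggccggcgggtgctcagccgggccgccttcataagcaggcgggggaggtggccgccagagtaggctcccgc
Ibsp, GRCr8 chr14:5757243-5757492, minus strand: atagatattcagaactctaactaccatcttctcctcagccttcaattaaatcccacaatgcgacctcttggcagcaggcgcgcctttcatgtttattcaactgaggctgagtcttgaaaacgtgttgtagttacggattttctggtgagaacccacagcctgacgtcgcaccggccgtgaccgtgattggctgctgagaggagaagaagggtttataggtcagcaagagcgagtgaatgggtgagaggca
The Spp1 window held 1 RUNX core, on the opposite strand, 126 to 121 bases before the start; 19% of all 33469 promoters of that length hold one. The Alpl window, with 76% G and C, held 4 GC boxes, 2 of them sharing a base, and 30.5% of promoters hold at least 1. The Ibsp window matched none of the 5, which says only that these letters are not in it. AP-1, ETS and STAT motifs, held by 6.34%, 3.1% and 7.67% of promoters, were in none of the 3 windows.

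Levels per gene length, as the FPKM that the authors deposited, spread over several orders of magnitude. Spp1 stood apart at 276 ± 21.2 FPKM in RPTi, 3462 ± 479 FPKM in RPT and 1455 ± 85.6 FPKM in RP (SD, n = 3 each). Mef2c came next in every group, at 11.2 ± 0.822, 6.42 ± 0.546 and 9.28 ± 0.946 FPKM in RPTi, RPT and RP. Alpl ranked above Runx2 in RPTi (9.81 ± 0.514 against 2.17 ± 0.185 FPKM) and in RP (5.64 ± 0.3 against 3.32 ± 0.338 FPKM), and below it in RPT (2.31 ± 0.354 against 3.53 ± 0.382 FPKM). Sp7 and Ibsp averaged 0.537 to 1.01 FPKM over the groups and were within their spread of each other in RPTi and RPT. Panx3 averaged 1.3 ± 0.235, 0.168 ± 0.0203 and 0.41 ± 0.0986 FPKM in RPTi, RPT and RP, and so ranked above Sp7 and Ibsp only in RPTi. Col10a1 averaged 0.0899 to 0.274 FPKM and Phex 0.0172 to 0.0404 FPKM over the groups.

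**Figure D1:**
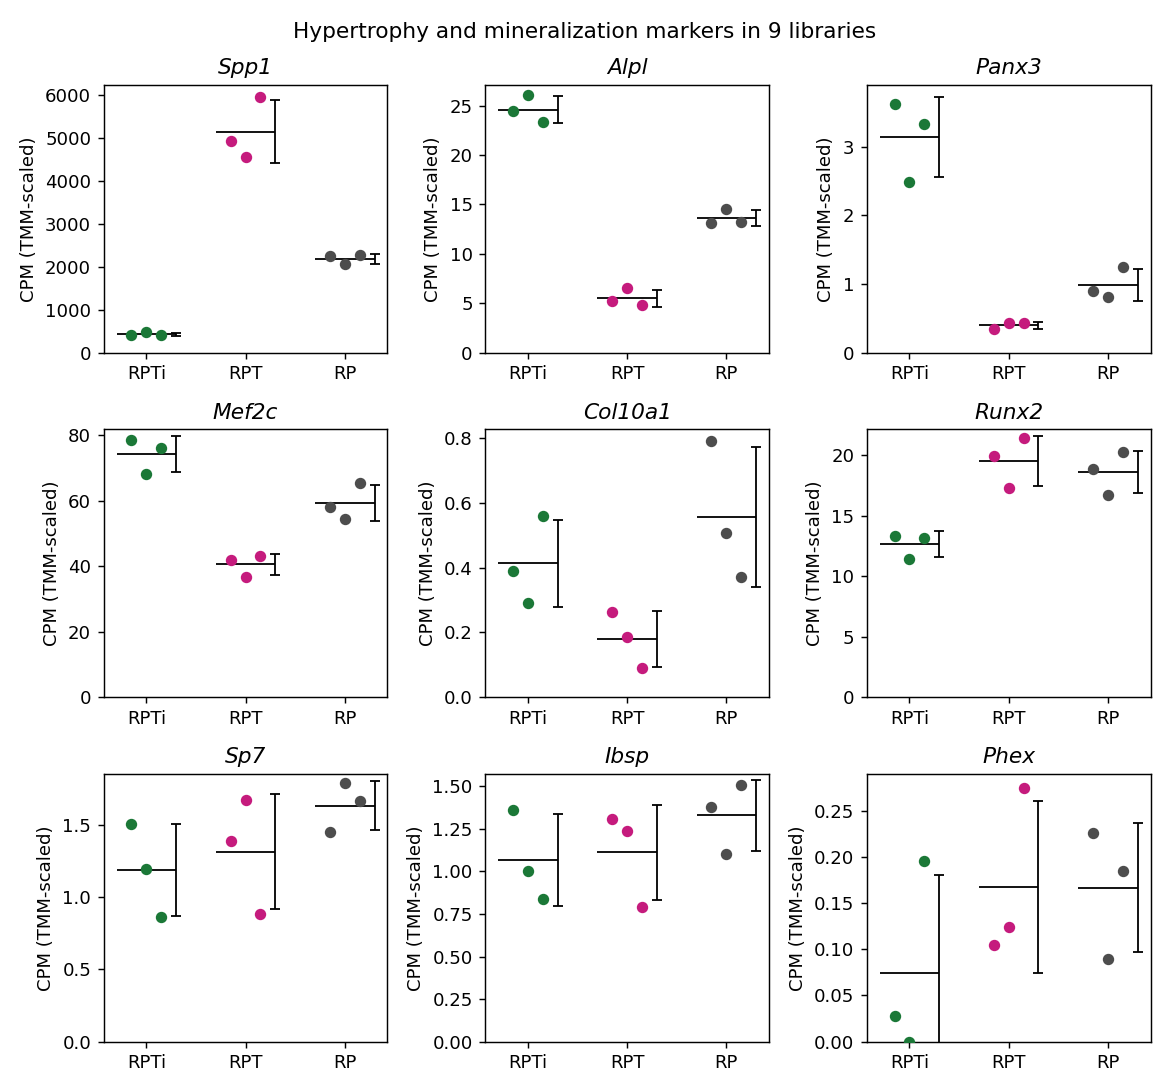
Each panel plots 1 gene, with the 9 libraries as points (TMM-scaled CPM, axis from 0), the group mean as a horizontal line and the SD as a bar beside it (n = 3; the lower end of the Phex bar in RPTi is cut at 0). Spp1 is highest in RPT and lowest in RPTi, while Alpl, Panx3 and Mef2c are lowest in RPT and highest in RPTi, with no overlap between groups; Sp7, Ibsp and Phex overlap.

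With thrombin in plasma, set against plasma alone, Spp1 rose and Alpl, Panx3, Mef2c and Col10a1 fell, while Runx2, Ibsp and Sp7 did not pass the test. Calls rest on edgeR's quasi-likelihood test with Benjamini-Hochberg adjustment over all 13856 genes, at an adjusted p below 0.05, and adjusted p-values below are from it. Of the 8 tested members 1 rose and 4 fell, where 13.6% of all tested genes rose and 15.2% fell (28.9% in either direction). Ranges of the groups were apart for 5 members, against 40.4% of all genes. The members' median log2 fold change was -0.43 and that of all genes -0.00, and in absolute size 0.89 against 0.21. As the members were chosen with earlier results known, such contrasts with all genes are a description, not a test.

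Spp1 (ENSRNOG00000043451) was among the abundant transcripts of these cells. It had 4936, 4563 and 5966 CPM in the RPT libraries, against 2249, 2058 and 2269 CPM in the RP libraries. Every RPT library lay above every RP library, without overlap. The change was 2.35-fold (95% interval 2.05 to 2.69; log2 fold change 1.23, SE 0.09, adjusted p = 8.82e-07). Its reads made up 0.462% to 0.605% of all counts in RPT and 0.206% to 0.231% in RP, which placed it 9th to 13th among genes by count in RPT and 32nd to 39th in RP.

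Alpl (ENSRNOG00000013954), the phosphatase gene, went the other way. It had 5.20, 6.50 and 4.85 CPM in RPT, against 13.1, 14.5 and 13.3 CPM in RP, and the groups were far apart. The fall was 2.47-fold (95% interval 2.09 to 2.92; log2 fold change -1.30, SE 0.11, adjusted p = 2.83e-06). Panx3 (ENSRNOG00000031675) encodes a channel protein that in mice marks chondrocytes on the way to hypertrophy and osteoblasts. It had 13, 14 and 14 counts in RPT, against 40, 27 and 47 counts in RP, with no overlap. It fell 2.46-fold (95% interval 1.60 to 3.77; log2 fold change -1.30, SE 0.28, adjusted p = 0.00444), with a wide interval at these counts.

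Mef2c (ENSRNOG00000033134) fell less. It had 41.8, 36.9 and 43.0 CPM in RPT, against 58.2, 54.4 and 65.5 CPM in RP, without overlap. That is a 1.46-fold fall (95% interval 1.28 to 1.67; log2 fold change -0.55, SE 0.09, adjusted p = 5.43e-04). Col10a1 (ENSRNOG00000051399) had 10, 6 and 3 counts in RPT, against 35, 17 and 14 counts in RP. The groups did not overlap, but single libraries decided the call. It was 3.04-fold lower (95% interval 1.50 to 6.17; log2 fold change -1.60, SE 0.47, adjusted p = 0.0226), and the call was lost with RP replicate 1 left out (log2 fold change -1.24, adjusted p = 0.121), or RPT replicate 2 (-1.62, 0.0573) or RPT replicate 3 (-1.30, 0.0766), in a range of adjusted p from 0.0193 to 0.121 over its alternatives.

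The transcription factor that heads this program did not pass in the same comparison. Runx2 (ENSRNOG00000020193) had 19.9, 17.3 and 21.4 CPM in RPT, against 18.8, 16.7 and 20.2 CPM in RP, with overlapping groups. The interval of the ratio of RPT to RP ran from 0.899 to 1.23 (log2 fold change 0.07, adjusted p = 0.655). Sp7 (ENSRNOG00000014082) had 53, 54 and 29 counts in RPT, against 64, 60 and 63 counts in RP, and the interval of the ratio was 0.53 to 1.23 (adjusted p = 0.452). Ibsp (ENSRNOG00000002158) had 50, 40 and 26 counts in RPT, against 61, 37 and 57 counts in RP, with an interval of 0.552 to 1.27 (adjusted p = 0.539). For Sp7 and Ibsp the depth leaves differences of nearly that size undetectable. Phex (ENSRNOG00000023440), the peptidase gene mutated in human X-linked hypophosphatemia, had 4, 4 and 9 counts in RPT, against 10, 3 and 7 counts in RP, and was not tested.

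**Figure D2:**
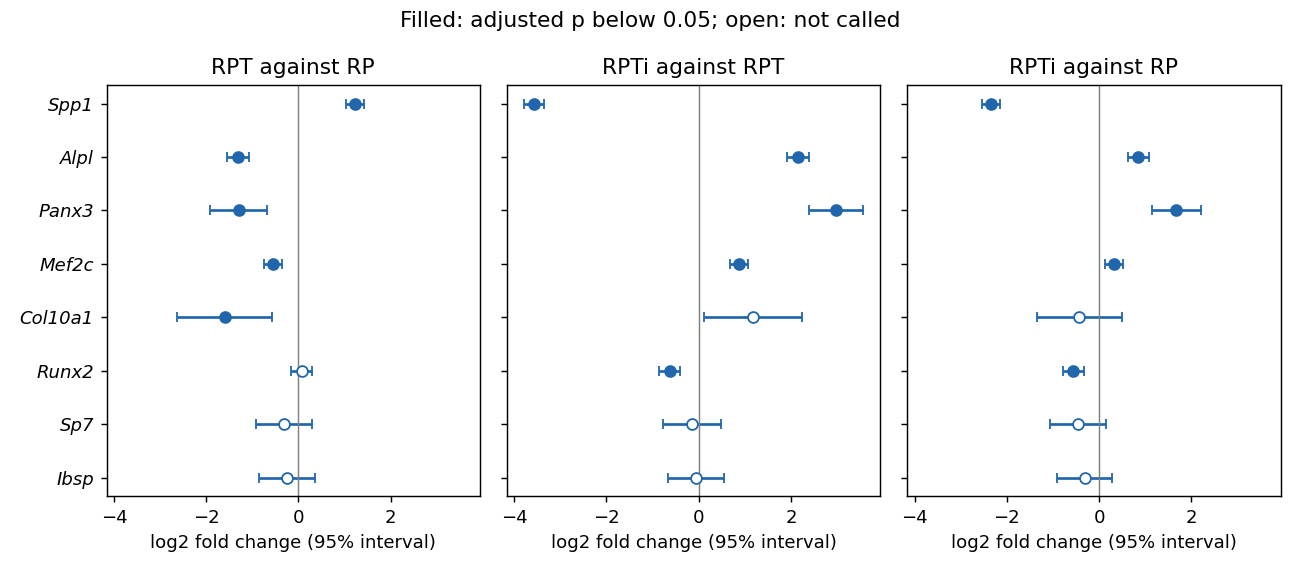
Log2 fold changes of the 8 tested members in the 3 comparisons, with 95% intervals from the edgeR fit to all 9 libraries; filled points passed an adjusted p of 0.05 and open points did not. Spp1 sits opposite to Alpl, Panx3 and Mef2c in each panel, and Runx2 is at 0.07 for RPT against RP and below 0 in the other panels.

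With the inhibitor added to thrombin, Spp1 and Runx2 were lower than with thrombin alone, and Alpl, Panx3 and Mef2c were higher. This comparison shares the RPT libraries with the first, so a member's opposite signs in these comparisons are not independent of each other. Of the 8 tested members 3 rose and 2 fell, where 20.4% of all tested genes rose and 21.1% fell (41.5% in either direction). Ranges were apart for 6 members, against 50.8% of all genes. The members' median log2 fold change was 0.40, against -0.01 for all genes, and in absolute size 1.02 against 0.27.

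Spp1 had 422, 470.4 and 405 CPM in the RPTi libraries, against 4936, 4563 and 5966 CPM in the RPT libraries. The inhibitor group lay entirely below. Spp1 was 11.9-fold lower (95% interval 10.3 to 13.8; log2 fold change -3.58, SE 0.10, adjusted p = 3.51e-10), and in rank by count it stood at 303 to 353 in RPTi. Panx3 had the largest rise of the 8 tested members. It had 130, 77 and 119 counts in RPTi, against 13, 14 and 14 counts in RPT, and rose 7.84-fold (95% interval 5.20 to 11.8; log2 fold change 2.97, SE 0.27, adjusted p = 2.19e-06).

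Alpl had 24.4, 26.0 and 23.3 CPM in RPTi, against 5.20, 6.50 and 4.85 CPM in RPT. All RPTi libraries were far above all RPT libraries, a 4.46-fold rise (95% interval 3.78 to 5.27; log2 fold change 2.16, SE 0.11, adjusted p = 1.11e-08). Mef2c had 78.5, 68.1 and 76.2 CPM in RPTi, against 41.8, 36.9 and 43.0 CPM in RPT, and rose 1.83-fold (95% interval 1.60 to 2.09; adjusted p = 5.91e-06). Runx2 had 13.3, 11.4 and 13.1 CPM in RPTi, against 19.9, 17.3 and 21.4 CPM in RPT, without overlap. It fell 1.55-fold (95% interval 1.32 to 1.81; log2 fold change -0.63, SE 0.11, adjusted p = 4.16e-04). Alpl and Runx2 thus differed in opposite directions between these groups.

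Col10a1 had 14, 9 and 20 counts in RPTi, against 10, 6 and 3 counts in RPT. In CPM its groups did not overlap, but the difference did not pass (ratio interval 1.08 to 4.71, adjusted p = 0.0732). Sp7 had 54, 37 and 31 counts in RPTi, against 53, 54 and 29 counts in RPT, with a ratio interval of 0.587 to 1.39 (adjusted p = 0.719). Ibsp had 49, 31 and 30 counts in RPTi, against 50, 40 and 26 counts in RPT, with a ratio interval of 0.625 to 1.47 (adjusted p = 0.882). Neither gene passed in any of the 3 comparisons. Phex had 1, 0 and 7 counts in RPTi, and the count of 0 allows up to 0.0969 CPM in that library (counting error only).

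Cells with thrombin and inhibitor also differed from cells in plasma alone. Against RP, Spp1 and Runx2 were lower in RPTi, and Alpl, Panx3 and Mef2c were higher, so 3 of 8 members rose and 2 fell, where 11.9% of all tested genes rose and 12.3% fell (24.2% in either direction). Ranges were apart for 5 members, against 43.9% of all genes. The members' median log2 fold change was -0.37 and that of all genes -0.01.

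Spp1, with the 422, 470.4 and 405 CPM of RPTi against 2249, 2058 and 2269 CPM in RP, was 5.07-fold lower (95% interval 4.4 to 5.84; log2 fold change -2.34, SE 0.09, adjusted p = 1.06e-08). Runx2 was 1.47-fold lower in RPTi (95% interval 1.25 to 1.72; log2 fold change -0.56, SE 0.11, adjusted p = 0.00216). Panx3 was 3.19-fold higher in RPTi (95% interval 2.21 to 4.60; log2 fold change 1.67, SE 0.24, adjusted p = 3.20e-04). Alpl was 1.81-fold higher in RPTi (95% interval 1.55 to 2.11; log2 fold change 0.85, SE 0.10, adjusted p = 6.58e-05). For each of these genes the RPTi libraries lay wholly on one side of the RP libraries. The order of the 3 groups was thus RPTi above RP above RPT for Alpl, Panx3 and Mef2c, and RPT above RP above RPTi for Spp1, with each neighbouring pair called; for Runx2, RPT and RP were not told apart and both stood above RPTi.

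Mef2c was only 1.25-fold higher in RPTi than in RP (95% interval 1.10 to 1.43; adjusted p = 0.0177). That call was lost without RP replicate 1 (log2 fold change 0.31, adjusted p = 0.0659), RP replicate 2 (0.26, 0.0704), RPTi replicate 1 (0.28, 0.0892) or RPTi replicate 3 (0.30, 0.0662), in a range of adjusted p from 9.42e-04 to 0.0892 over its alternatives. Col10a1 (ratio interval 0.394 to 1.40, adjusted p = 0.502), Sp7 (0.478 to 1.11, adjusted p = 0.267) and Ibsp (0.528 to 1.22, adjusted p = 0.447) did not pass.

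Among other regulators of phosphate, pyrophosphate and mineral, 7 of 14 tested rose and 6 fell with thrombin against plasma alone. With the inhibitor against thrombin alone, 4 rose and 7 fell. Their median log2 fold changes were 0.09 and -0.26, and 28.9% and 41.5% of all tested genes were called in these comparisons, with medians of -0.00 and -0.01. The pyrophosphate-making ectoenzyme Enpp1, whose product Alpl removes, averaged 74.3 ± 2.32 CPM in RPTi, 195 ± 23.0 CPM in RPT and 122 ± 4.85 CPM in RP (SD, n = 3 each). It rose 1.61-fold in RPT against RP (adjusted p = 3.16e-05) and fell 2.63-fold in RPTi against RPT (adjusted p = 2.76e-08), each time opposite to Alpl. Ankh, which encodes the membrane protein that releases pyrophosphate precursors, averaged 66.1 ± 2.85 CPM in RPTi, 149 ± 3.91 CPM in RPT and 167 ± 0.765 CPM in RP. It fell 2.25-fold in RPTi against RPT (adjusted p = 6.79e-09) and 2.52-fold in RPTi against RP (adjusted p = 1.44e-08). In RPT against RP it was 1.12-fold lower (adjusted p = 0.0379), a call lost under 9 of 16 alternatives.

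The phosphate importer gene Slc20a1 rose 1.73-fold in RPT against RP (adjusted p = 1.74e-06) and fell 2.43-fold in RPTi against RPT (adjusted p = 8.66e-09). Smpd3, a sphingomyelinase gene whose loss impairs skeletal mineralization in mice, averaged 61.4 ± 5.20 CPM in RPTi, 7.90 ± 0.390 CPM in RPT and 26.2 ± 0.353 CPM in RP, the same order of groups as Alpl. It fell 3.32-fold in RPT against RP (adjusted p = 4.28e-08) and rose 7.77-fold in RPTi against RPT (adjusted p = 3.51e-10). Phospho1, a phosphatase of matrix vesicles, rose 1.47-fold in RPT against RP (adjusted p = 0.0041), unlike Alpl. The calcification inhibitor Mgp fell 1.27-fold in RPT against RP (adjusted p = 6.85e-04) and rose 1.31-fold in RPTi against RPT (adjusted p = 1.55e-04).

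**Figure D3:**
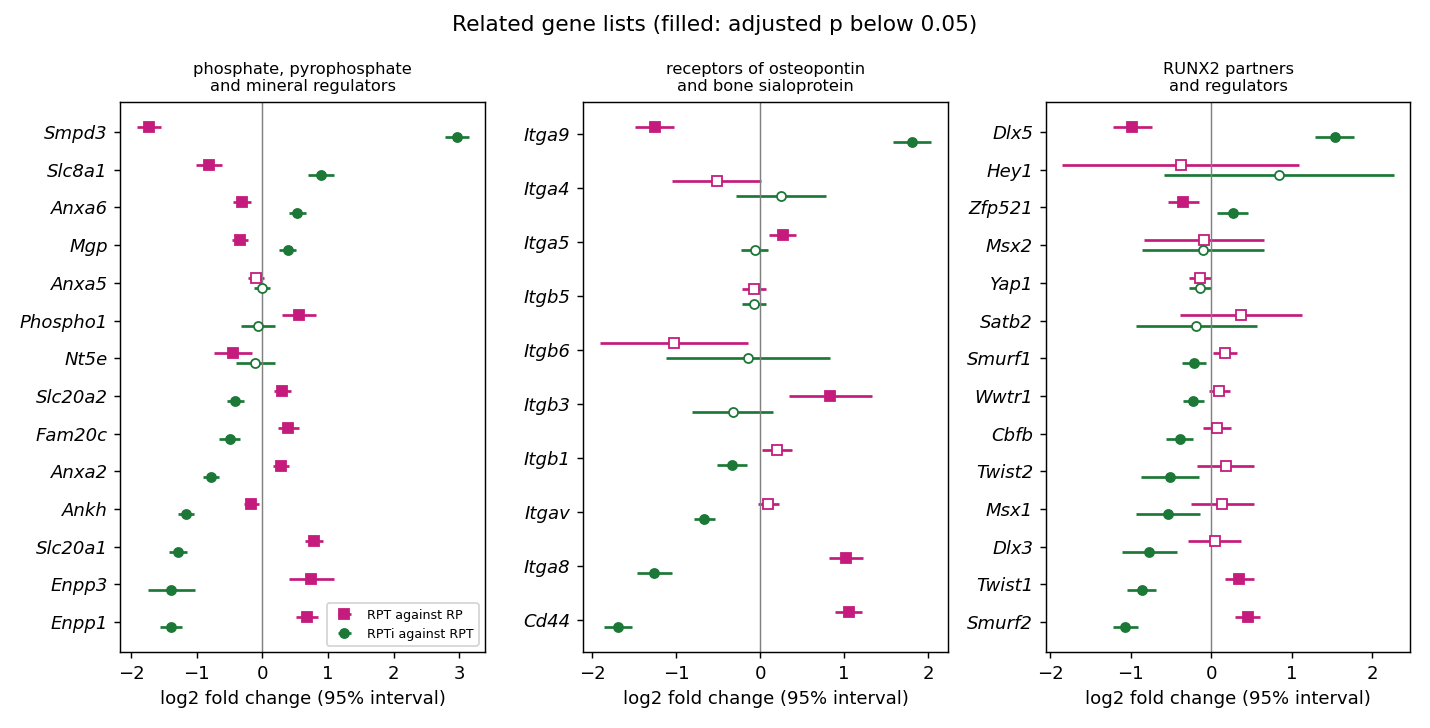
Log2 fold changes with 95% intervals for the tested genes of 3 related lists; green circles give RPTi against RPT and pink squares RPT against RP, filled where the adjusted p was below 0.05. The comparisons share the RPT libraries; Smpd3, Itga9 and Dlx5 lie right of 0 for RPTi against RPT, and Enpp1, Cd44 and Smurf2 lie left of it.

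Among receptors for osteopontin and bone sialoprotein, 5 of 10 passed in RPT against RP, where 28.9% of all genes did, and 5 of 10 in RPTi against RPT, a share near the 41.5% of all genes. Cd44, a receptor for hyaluronan and osteopontin, averaged 123 ± 11.5 CPM in RPTi, 399 ± 29.8 CPM in RPT and 192 ± 5.55 CPM in RP, the same order as Spp1. It rose 2.07-fold in RPT against RP (adjusted p = 6.75e-07) and fell 3.24-fold in RPTi against RPT (adjusted p = 4.23e-09). The integrin subunit gene Itga8 rose 2.03-fold and fell 2.40-fold in the same comparisons (adjusted p = 5.58e-06 and 3.94e-07), whereas Itga9 fell 2.39-fold and rose 3.50-fold (adjusted p = 2.77e-06 and 3.72e-08). The alpha v subunit gene Itgav did not pass in RPT against RP (1.07-fold higher, adjusted p = 0.23) and fell 1.59-fold in RPTi against RPT (adjusted p = 1.24e-06). By direction, 4 receptor genes rose and 1 fell in RPT against RP (median log2 fold change 0.15), with 2 rising without RP replicate 1 or RP replicate 3, and 1 rose and 4 fell in RPTi against RPT (median -0.24).

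Of 14 partners and regulators of RUNX2, 2 rose and 2 fell in RPT against RP, and 2 rose and 8 fell in RPTi against RPT (5 fell without RPT replicate 1 or RPTi replicate 3, and 1 rose without RPT replicate 1, RPT replicate 2, RPTi replicate 1 or RPTi replicate 3). The first count is near the 28.9% called among all genes; for the second that share was 41.5%, and the list's medians were 0.09 and -0.22. Cbfb, the DNA-binding partner of RUNX proteins, averaged 67.2 ± 4.22 CPM in RPTi, 88.1 ± 4.88 CPM in RPT and 83.7 ± 7.19 CPM in RP. It fell 1.31-fold in RPTi against RPT (adjusted p = 0.00148) and did not pass in RPT against RP (log2 fold change 0.07, adjusted p = 0.523). Dlx5, a homeobox factor of bone formation, followed the order of Alpl, at 16.6 ± 1.84 CPM in RPTi, 5.76 ± 0.601 CPM in RPT and 11.3 ± 0.373 CPM in RP. Twist1, which restrains RUNX2 in mice, rose 1.28-fold in RPT against RP (adjusted p = 0.00606) and fell 1.81-fold in RPTi against RPT (adjusted p = 3.54e-06). Smurf2, a ubiquitin ligase gene, rose 1.37-fold (adjusted p = 3.58e-04) and fell 2.09-fold (adjusted p = 1.16e-07).

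Other genes of the growth plate program split. Of 17 tested, 4 rose and 7 fell in RPT against RP, and 6 rose and 6 fell in RPTi against RPT, where 28.9% and 41.5% of all genes were called. The list's median log2 fold changes were 0.03 and 0.07. Pth1r, the receptor of parathyroid hormone-related protein, fell 1.41-fold in RPT against RP (adjusted p = 1.76e-04) and rose 2.00-fold in RPTi against RPT (adjusted p = 1.51e-07). The collagenase gene Mmp13, a late hypertrophic product, rose 1.41-fold in RPT against RP (adjusted p = 0.0204) and was 5.95-fold lower in RPTi than in RPT (adjusted p = 4.57e-08). Ihh, with 15 to 25 counts in RPT, fell 1.80-fold in RPT against RP (adjusted p = 0.0304), a call lost under 5 of 16 alternatives. Its rise in RPTi against RPT was 4.56-fold (adjusted p = 2.11e-05). Vegfa, the vessel growth factor of the hypertrophic zone, rose 2.25-fold in RPT against RP (adjusted p = 2.79e-07) and fell 1.84-fold in RPTi against RPT (adjusted p = 1.03e-06). Genes of hypertrophy thus stood on both sides in each comparison, with Spp1, Mmp13 and Vegfa lower in RPTi than in RPT and Alpl, Panx3 and Mef2c higher.

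Of 11 other osteoblast and osteocyte genes tested, 2 rose and 5 fell in RPT against RP, and 6 rose and 3 fell in RPTi against RPT, beside the same 28.9% and 41.5% of all genes. Their medians were -0.53 and 0.34. Col1a1, the main collagen of bone, fell 1.83-fold in RPT against RP (adjusted p = 1.06e-06) and rose 1.91-fold in RPTi against RPT (adjusted p = 1.81e-07). Tnfrsf11b, which encodes the osteoclast inhibitor osteoprotegerin, fell 1.74-fold (adjusted p = 3.03e-04) and rose 3.27-fold (adjusted p = 2.05e-07). In the RefSeq gene order Spp1, Mepe, Ibsp, Dmp1 and Dspp follow each other among protein-coding genes of chromosome 14. Mepe had 0 to 5 counts per library, and Dmp1, a matrix protein gene of osteocytes, had 2, 1 and 3 counts in RPTi, 7, 9 and 13 in RPT and 32, 5 and 22 in RP. Like Spp1 it was lowest in RPTi, and it was called lower there than in RP (log2 fold change -3.01, adjusted p = 0.00642), but in RPT against RP it did not pass (-0.80, adjusted p = 0.291).

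Other marker lists were followed across the same groups. Chondrocyte markers fell in 8 of 8 cases in RPT against RP and rose in 8 of 8 in RPTi against RPT, where 15.2% of all genes fell and 20.4% rose. In RPTi against RP 6 of 8 rose and none fell, where 11.9% of all genes rose, with the aggrecan gene Acan 2.35-fold higher (adjusted p = 5.71e-08). These are the directions of Alpl, Panx3 and Mef2c, and their part in those results was not tested. Macrophages also make osteopontin, and 7 macrophage genes summed to 25.3 to 29.5 CPM in RPTi, 45.3 to 46.8 CPM in RPT and 24.5 to 28.8 CPM in RP, where Cd14 alone averaged 24.2 ± 1.92, 40.3 ± 0.943 and 21.4 ± 1.97 CPM. The leukocyte gene Ptprc had 0 to 4 counts and the macrophage gene Adgre1 0 to 5 counts in any library, next to 14497 to 195635 counts of Spp1. Of 4 macrophage genes tested, Cd14 and Cd68 rose and Csf1r was called lower in RPT against RP; Csf1r lost its call under 12 of 15 alternatives, and Cd68 did so without RP replicate 3. In RPTi against RPT 2 fell, Cd14 and Cd68.

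Osteoclast markers summed to 44.1 to 47.6 CPM in RPTi, 31.3 to 32.8 CPM in RPT and 39.6 to 42.7 CPM in RP, nearly all from Ctsk and Acp5, while Calcr had at most 1 count and Ocstamp at most 2 in any library. Endothelial markers summed to 1.71 to 2.09, 2.90 to 4.37 and 1.64 to 2.35 CPM in RPTi, RPT and RP, with Cdh5 at 0 to 2 counts. Of 2 endothelial genes tested 1 was called, Plvap. It rose 2.70-fold in RPT against RP (adjusted p = 5.60e-04) and fell 3.48-fold in RPTi against RPT (adjusted p = 6.28e-05). Muscle markers, relevant to Mef2c, summed to 24.2 to 29.1, 22.7 to 26.7 and 14.7 to 17.8 CPM, mostly from Des, with Myog at 0 to 2 counts. Of 4 muscle genes tested 1 rose in RPT against RP, 2 rose and 1 fell in RPTi against RPT, and 3 rose and 1 fell in RPTi against RP, where Mef2c was also called higher. Acta1, the skeletal muscle actin gene, had 85 to 127 counts in RPTi, 2 to 11 in RPT and 11 to 17 in RP, and was 17.7-fold higher in RPTi than in RPT (adjusted p = 6.29e-06) and 8.63-fold higher than in RP (adjusted p = 7.98e-05). Myh3, an embryonic myosin gene, had 17 to 22 counts in RPTi, 0 to 7 in RPT and 1 to 2 in RP, and passed in both comparisons (adjusted p = 0.00346 against RPT and 0.00109 against RP). The gene that fell was Myod1, with 3 to 5, 8 to 21 and 10 to 13 counts in RPTi, RPT and RP, and its call against RP was lost under 11 of 15 alternatives. With a filter of at least 1 CPM in 3 libraries, 1 muscle gene rose and 0 fell in RPTi against RPT. Blood cell markers stayed at or under 0.268 CPM. The part of these lists in the results was not tested.

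The genes whose log2 CPM was most like each member over the 9 libraries were listed as a description, since the libraries form 3 groups and r then mostly reflects the group means. For Spp1 they were Spred2 (Pearson r = 0.996), the dual-specificity phosphatase gene Dusp6 (0.995) and the lipoprotein receptor gene Lrp8 (0.995). For Alpl they were the collagen gene Col8a2 (0.999), Wscd2 (0.999) and Nkd1 (0.998). Panx3 was nearest to the collagen IX gene Col9a3 (0.996), Mef2c to Zfpm2 (0.995) and Runx2 to Arrdc3 (0.994), followed for Runx2 by Ddx46 (0.993) and Cbfb (0.990).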

How the data were processed

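The deposited table gave whole-number counts per gene and FPKM per library. Per the submitters' processing notes the build was Rnor_6.0 and the tools included DESeq2 1.26.0, HTSeq 0.11.2 and HISAT2, with no roles or order. The sources used here do not give annotation, strand setting or filters, so overlapping or antisense genes are uncertain. The FPKM, made by the authors, fitted counts divided by library total and 1 length per gene. The counts were tested with edgeR 4.0.16 (R 4.3.3): filterByExpr (minimum count 10, minimum total 15, removing 0.0259% of counts), TMM, and 1 quasi-likelihood fit to all 9 libraries with a coefficient per group. The fit was tested on simulated data. Intervals (95%) derive from fold change and F. Folds of genes with few counts depend on edgeR's prior count.

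The rule for named genes took all 9 members, up to 4 called genes with the smallest p per list and comparison, the defining genes of other cell types, and the 3 genes most like a member (mean of at least 5 CPM). Dmp1, Mepe, Bglap, Phospho1, Mgp, Ihh, Panx1 and Col1a2 fall outside it and were chosen after their values were seen. Members and the 13 other lists were chosen with earlier results of these data known. Of 123 listed genes 15 had no matching symbol and were not analysed here. Alternatives were DESeq2 1.42.0, its size factors, library totals, other filters, 2-group fits, a replicate block and leaving out each library. Groups and replicate numbers came from the titles.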

Additional observations from a re-analysis of the deposited data

How the results depend on the processing

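The alternatives gave 380 values of single members, of which 367 kept direction and side of the threshold, and 7 lost the call, all given above for Col10a1 and Mef2c. Leaving out single libraries turned the sign of 6 uncalled values of members (1 of Runx2, 3 of Ibsp, 2 of Sp7) and of 1 each of Phospho1 and Mgp. The log2 fold change then ran from -0.0024 to 0.151 for Runx2 in RPT against RP, and in RPTi against RPT from -0.282 to 0.0874 for Ibsp, -0.361 to 0.0582 for Sp7 and -0.151 to 0.0517 for Phospho1. For Mgp in RPTi against RP it ran from -0.00762 to 0.0745, and it was -0.0117 with library totals alone. The cause was not tested.

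Over all settings the members called numbered 4 to 5 in RPT against RP, 5 in RPTi against RPT and 4 to 5 in RPTi against RP. Same-numbered libraries of different groups had deviations that correlated at -0.114 to 0.124, and others at -0.161 to 0.143. Within these ranges, same-numbered pairs of replicates 2 and 3 were all positive (0.0222 to 0.124). Pairs of a replicate 2 with a replicate 3 were all negative (-0.161 to -0.0644), and so were same-numbered pairs of replicate 1 (-0.114 to -0.0343). Deviations were taken from the mean of each group, so positive and negative pairs are tied to each other and are not separate evidence. Whether the numbers mark a shared batch is not settled, and the main fit had no block. With the replicate as a block the members called were 5 in each comparison, and all genes called were 6698 in RPTi against RPT, 5074 in RPT against RP and 4689 in RPTi against RP (5745, 3999 and 3352 without it). Without a filter Phex did not pass in any comparison (adjusted p = 0.422 to 1). Phex, Col10a1, Ibsp, Sp7, and Panx3 in RPT, had few counts, which limits what can be said of them. The part of depth in their spread was not tested.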

Other observations

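Relatives of Panx3 and Phex were also measured. Of the other pannexin genes, Panx1 averaged 10.5 ± 0.973 CPM in RPTi, 8.88 ± 0.644 CPM in RPT and 8.70 ± 0.905 CPM in RP and passed in no comparison, and Panx2 rose 1.61-fold in RPTi against RPT (adjusted p = 0.0201), a call lost without RPT replicate 2 (adjusted p = 0.0706), RPTi replicate 1 (0.062) or RPTi replicate 2 (0.0523). Of 4 peptidase genes related to Phex, 3 fell in RPT against RP, and 3 rose and 1 fell in RPTi against RPT. Of all genes 28.9% and 41.5% were called in these comparisons. Mme (neprilysin) fell 2.08-fold in RPT against RP (adjusted p = 5.38e-05) and rose 2.14-fold in RPTi against RPT (adjusted p = 1.84e-05). Ece1 fell 1.39-fold and rose 1.56-fold (adjusted p = 1.52e-04 and 5.98e-06). Ecel1, with 5 to 9 counts in RPTi and 21 to 31 in RPT, was the gene that fell in RPTi against RPT (3.53-fold, adjusted p = 0.00256).

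The partner chains of collagen I differed in level and in how far replicates agreed. Col1a1 averaged 12568, 6570 and 12039 CPM in RPTi, RPT and RP, and Col1a2 only 115, 91.1 and 131 CPM. Whether the Col1a2 counts represent the whole gene was not tested. Col1a1 varied 1.12-fold to 1.13-fold between the lowest and highest library of a group, whereas Col1a2 had 89.7, 167 and 88.9 CPM in RPTi, 58.6, 51.3 and 163 CPM in RPT and 212, 72.6 and 110 CPM in RP, a spread of 1.87-fold to 3.18-fold, and passed in no comparison (adjusted p = 0.41 to 0.785).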
